A study of Homo sapiens with 6 samples.

Results

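The cytosolic ribosomal proteins are the protein building blocks of the ribosomes that translate nuclear mRNAs. They were taken from the gene count table by symbol: RPL or RPS with a number, RPLP0 to RPLP2 and RPSA, with or without the endings A, X, L or L1, and without the S6 kinase genes. Of 84 such symbols, 82 had at least 10 counts in at least 3 samples and form the set described here, 50 of the large (60S) and 32 of the small (40S) subunit, of 38100 rows in the table. The 2 left out are RPL10L, with no count in any sample, and RPL3L, with 0 to 3 counts a sample, so the heart and muscle form of RPL3 and the testis form of RPL10 were at or near 0.

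The samples are HK2 cells, an established human line of renal proximal tubular epithelium. All of them received TGF-β1, the cytokine that drives fibrosis, and are labelled as wild type. In the AdCtrl group (3 samples) the cells carried a control adenovirus, and in the AdSIRT4 group (3 samples) an adenovirus that makes SIRT4, a deacetylase of mitochondria. The comparison asks how SIRT4 overexpression alters gene expression after TGF-β1. No group without TGF-β1 is analysed here, both groups were exposed to virus, and the study calls its repeats in cultured cells technical, so p-values measure the spread between these samples. The cell line field of the labels runs from HK2 to HK7 across the 6 samples, while every title names HK2.

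Each mammalian ribosome holds a single copy of nearly every ribosomal protein, and cells therefore make these proteins in matched amounts. Their mRNAs are short and very abundant, and most start with a C followed by a run of pyrimidines at the cap, the 5′ terminal oligopyrimidine (TOP) motif. mTORC1, through LARP1 and related factors, controls the translation and stability of TOP mRNAs as a group. RNA-seq of total mRNA shows how much of each message is present, not how well it is translated.

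The start of each gene shows the feature that members share and that the rule did not use. RefSeq start regions (build GRCh38.p14) were found for 66 of the 82 members. A C followed by at least 4 C or T, starting within 5 bases of an annotated start, was present in 54 of the 66 (81.8%), against 28.3% of the 13581 tested genes with a sequence. The large subunit (82.9%) and the small subunit (80.0%) were alike in this. The windows below hold 15 bases on each side of the annotated start, written 5′ to 3′ on the gene's strand, with the pyrimidine run in capitals. They show members with high mRNA levels, the members with the most positive and most negative fold changes (RPL34 and RPS29), and paralogs with their parent genes.
RPS18 (chr6:33272060-33272089, plus strand): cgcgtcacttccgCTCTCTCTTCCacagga
RPLP0 (chr12:120201097-120201126, minus strand): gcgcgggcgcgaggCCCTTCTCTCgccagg
RPS6 (chr9:19380222-19380251, minus strand): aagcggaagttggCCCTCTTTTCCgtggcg
RPL34 (chr4:108620561-108620590, plus strand): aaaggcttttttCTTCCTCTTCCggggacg
RPS29 (chr14:49598696-49598725, minus strand): ccccgagcgcgcagctggcagcggtggttg
RPS27 (chr1:153990747-153990776, plus strand): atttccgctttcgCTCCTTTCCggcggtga
RPS27L (chr15:63157463-63157492, minus strand): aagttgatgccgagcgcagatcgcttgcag
RPL22 (chr1:6199581-6199610, minus strand): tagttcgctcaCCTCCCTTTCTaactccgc
RPL22L1 (chr3:170870181-170870210, minus strand): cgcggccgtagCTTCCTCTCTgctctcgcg
RPL26 (chr17:8383179-8383208, minus strand): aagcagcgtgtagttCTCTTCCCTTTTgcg
RPL26L1 (chr5:172958714-172958743, plus strand): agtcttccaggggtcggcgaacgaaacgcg

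The run began 0 to 4 bases before the annotated start in RPS18, RPLP0, RPS6, RPL34, RPS27, RPL22 and RPL26. Among the paralogs RPL22L1 held one and RPS27L, RPL26L1 and RPL7L1 did not. The other 9 of the 12 members without a run were RPL15, RPL17, RPL27, RPL6, RPL9, RPS15, RPS26, RPS29 and RPS4X, and an annotated start a few bases off is enough to miss it. Of the 69 mitochondrial ribosomal protein genes with a sequence, 23.2% held a run, and of 66 ribosome assembly factor genes, 19.7%. The share was 42.1% of the translation factor genes (38 with a sequence) and 92.9% of 14 other TOP mRNA genes, a list of genes known for the motif, and 7 of 14 rRNA synthesis genes held a run. Over the whole 300 bases and on both strands, the ETS family core CCGGAAG was in 36.4% of members and 19.6% of tested genes, the YY1 motif AANATGGC in 16.7% and 10.9%, and the TATA box letters TATAAA in 9.09% of both. CCGGAAG was more common in the mitochondrial ribosomal protein (43.5%), assembly factor (47.0%) and rRNA synthesis (57.1%) genes, and AANATGGC in the mitochondrial ribosomal protein (37.7%), translation factor (31.6%) and other TOP mRNA (57.1%) genes.

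Ribosomal protein mRNAs were among the most abundant in these cells. The totals ran from 41537353 to 85684748 counts a sample, and members took 4.90%, 4.75% and 4.64% of all counts in AdCtrl replicates 1 to 3. In AdSIRT4 they took 7.53%, 4.67% and 4.50%. The share in AdSIRT4 replicate 1 lay above all the others, and the other 2 AdSIRT4 samples lay within or just below the AdCtrl range. A larger share can come from more ribosomal protein mRNA or from less of other mRNAs, and these cannot be told apart in such data.

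SIRT4 itself had 31, 47 and 57 counts in AdCtrl and 1996, 7995 and 6827 in AdSIRT4, the group labelled with the SIRT4 virus. The counts do not separate transcripts of virus and cell. KRT8, KRT18 and CLDN1, markers of epithelium, had 14304 to 132104 counts in every sample, whereas CDH1, the epithelial cadherin, had 22 to 67. Of 10 proximal tubule markers, GGT1 (8191 to 18940 counts) and DPP4 (5208 to 14854) were well covered, while LRP2, SLC22A6, AQP1 and CUBN, which define the differentiated tubule, had at most 22 counts. In between, MME had 370 to 1267 counts, SLC5A2 had 64 to 173 and SLC34A1 had 17 to 49, and ANPEP had 3 to 14. Among markers of leukocytes (PTPRC) and endothelium (KDR, VWF, PECAM1), PTPRC, KDR and VWF had at most 8 counts and PECAM1 had 6 to 30. CD68 had 1552 to 3132 counts and CD14 had 115 to 166.

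Levels between genes are compared in FPKM, the deposited value per length. The highest mean FPKM in AdCtrl were those of RPS18 at 1682 ± 59.2 (SD, n = 3), RPLP0 at 1574 ± 62.5, RPS27 at 1565 ± 169, RPL39 at 1352 ± 28.95, RPS12 at 1326 ± 81.5 and RPS24 at 1253 ± 61.6. RPS18 lies in the head of the small subunit and RPLP0 is the base of the stalk that recruits translation factors. The median over members was 551.8 FPKM. At the other end stood the paralogs RPS27L at 6.15 ± 0.13, RPL22L1 at 9.25 ± 0.67, RPL26L1 at 21.1 ± 1.24, RPL7L1 at 36.2 ± 1.51 and RPL39L at 39.8 ± 6.21, followed by RPL14 at 46.0 ± 2.22. The mean levels of the neighbours RPLP0 and RPS27 differed by less than the larger of their SDs, and so did RPL39 and RPS12, RPS12 and RPS24, and, among the lowest, RPL7L1 and RPL39L and then RPL39L and RPL14. An FPKM depends on the length the authors' annotation gives a gene: in the tables RPL14 and RPS27L are treated as about 8108 and 7002 bases long, with coding lengths of 645 and 252 bases, so their FPKM are low for their counts. In 39 members that length is more than 2 times the coding length, among them RPL22L1 (2223 against 366) and RPL7L1 (4903 against 765). The FPKM order is thus not an order per coding length. By CPM per coding kilobase in AdCtrl RPL41 was highest, at 10030 against 2274 for RPS18.

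RPL22L1, RPS27L, RPL39L, RPL26L1 and RPL7L1 are paralogs of another member, and RPL36AL (a ribosomal protein gene outside the rule) is one of RPL36A. Per coding length, mRNA of the paralogs in AdCtrl was 3.94% ± 0.38 (SD, n = 3) of its parent for RPL22L1, 6.91% ± 0.78 for RPS27L, a target of p53, 5.52% ± 0.74 for RPL39L, best known from the testis, 4.93% ± 0.20 for RPL26L1 and 21.0% ± 0.69 for RPL7L1. In AdSIRT4 the same shares were 4.02% ± 0.13, 7.10% ± 0.32, 5.27% ± 0.25, 4.31% ± 0.30 and 19.4% ± 4.04. The parent was thus the main form of each pair in every sample. The exact two-sided permutation p was 0.7, 0.7, 0.9, 0.1 and 0.8, where 3 samples against 3 cannot go below 0.1, and over the 6 pairs the smallest adjusted p was 0.6. RPL26L1, at 4.87%, 4.77% and 5.16% in AdCtrl and 3.99%, 4.59% and 4.34% in AdSIRT4, was the pair whose groups did not overlap. RPL36AL stood at 11.8% of RPL36A in both groups (p = 1.0 in the exact permutation test). RPL7L1, which acts in assembly of the large subunit, stood at 14.9% of RPL7 in AdSIRT4 replicate 1 and was 20.5% to 22.7% in the other samples.

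Within AdCtrl the members varied little, but they are abundant, and they were not compared with genes of like abundance. The SD of log2 CPM (counts relative to the library total, which was scaled by the trimmed mean of M values) over the 3 AdCtrl samples had a median of 0.066 over members and 0.095 over all genes tested. Across the 5 samples other than AdSIRT4 replicate 1, the range of log2 CPM had a median of 0.17 for members and 0.31 for all genes, and 65 of 82 members stayed within 0.25. RPL10, a protein of the tRNA and catalytic sites, had CPM of 1199, 1168 and 1183 in AdCtrl and 1199 and 1155 in AdSIRT4 replicates 2 and 3. RPS6, the substrate of S6 kinases, had 793, 788 and 798 against 821 and 789. RPS29 (0.79), RPL37A (0.57) and RPL39L (0.56) had the widest log2 ranges.

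**Figure D1:**
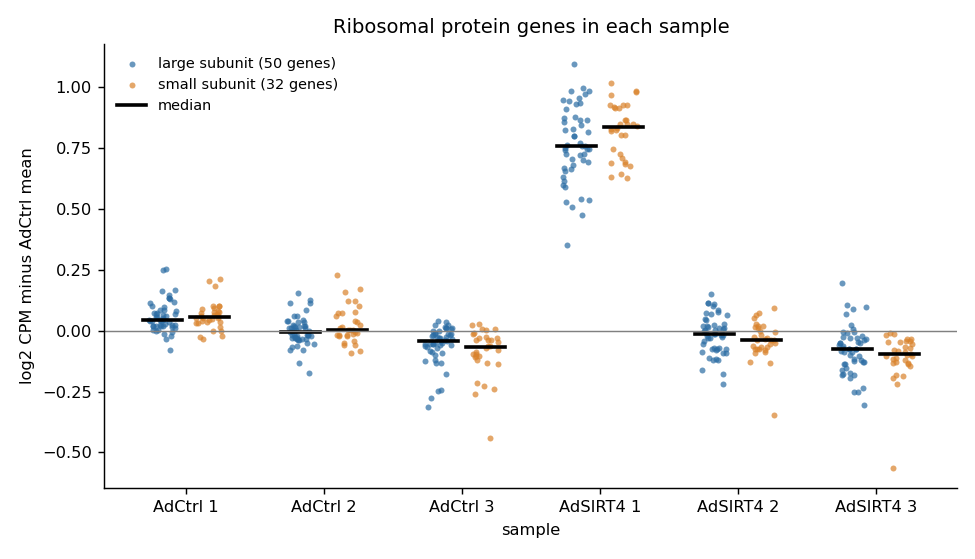
Deviation of each of the 82 ribosomal protein genes from its AdCtrl mean (y axis, log2 CPM) in each of the 6 samples (x axis); blue points are large subunit genes, orange points small subunit genes, black bars medians. All members of AdSIRT4 replicate 1 lie between 0.35 and 1.10, and the medians over members of the other 5 samples lie between -0.083 and 0.052.

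AdSIRT4 replicate 1 stood apart from every other sample. All 82 members had their highest CPM there, at 1.21 to 2.25 times the mean of AdSIRT4 replicates 2 and 3 (median 1.83). RPL37A was furthest up, with 1032 CPM against 465 and 454, and RPL7L1 least, with 223 against 181 and 188. Over members the median deviation from the AdCtrl mean was 0.80 on the log2 scale in this sample, and -0.024 and -0.083 in the other AdSIRT4 samples. The small subunit (0.84) and the large subunit (0.76) moved alike. The median over all genes lay between 0.00033 and 0.0052 in the 6 samples.

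The rise in that sample went with mRNA length, over members and over other genes. Genes outside the set with a coding length under 300 bases were higher there than in AdSIRT4 replicates 2 and 3 by a median of 0.69 on the log2 scale, those of 600 to 900 bases by 0.35, and those of 3000 bases or more were lower by 0.59 (a median of -0.59). Members of these short classes were higher by 0.91 (11 members under 300 bases), 0.89 (29 of 300 to 450), 0.87 (19 of 450 to 600) and 0.79 (20 of 600 to 900). In every class the median of the members lay above the median and below the 90th percentile of other genes of like length, if only just below it for RPL4, RPL3 and RPLP0, the 3 members of 900 to 1500 bases, whose median was 0.60. RPL7L1, at 0.28, lay below the median of its class. Over the 82 members Spearman's rho between this difference and coding length was -0.47, a description across genes that share a library. Mitochondrial ribosomal protein genes of the same classes stood at 0.87, 0.90, 0.66 and 0.62. RNA quality measures of the samples were not used here, and the part of length in the members' rise was tested only by removing its trend, as given below.

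**Figure D2:**
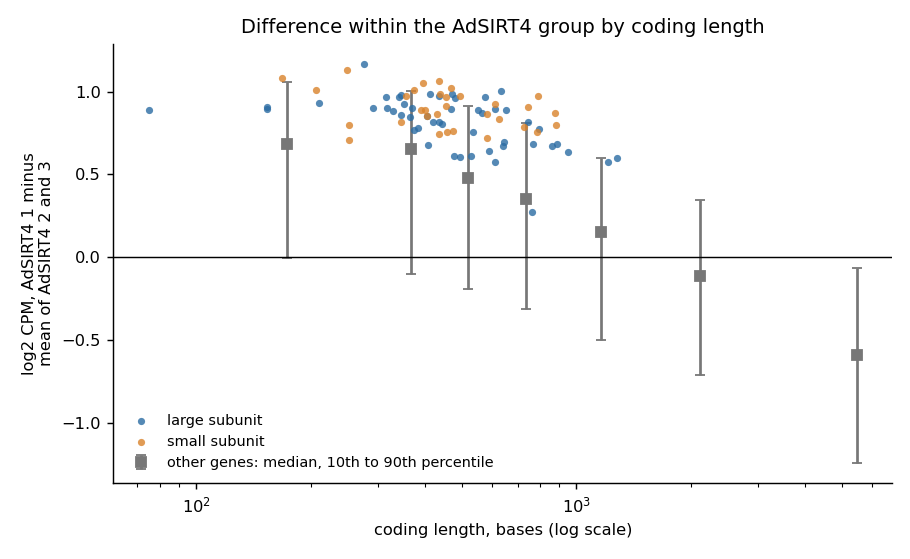
Log2 CPM in AdSIRT4 replicate 1 minus the mean of AdSIRT4 replicates 2 and 3 (y axis) against coding length in bases (x axis, log scale); blue and orange points are the 50 large and 32 small subunit genes, grey squares the medians of 7 length classes of other genes with bars from the 10th to the 90th percentile. Squares fall from 0.69 for the shortest class to -0.59 for the longest, and all members lie above 0.

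Most of the shortest members also varied within AdCtrl. RPS29, a zinc-binding protein of the small subunit with a coding length of 168 bases, had 197, 199 and 125 CPM in AdCtrl and 263, 134 and 115 in AdSIRT4. RPL37A, of the large subunit, had 645, 564 and 436 against 1032, 465 and 454, and RPS27 had 644, 699 and 530 against 970, 567 and 547. In all 3 genes AdCtrl replicate 3 was low and close to AdSIRT4 replicates 2 and 3. RPL38 (170, 174 and 129 against 264, 139 and 138), RPL41 (809, 817 and 632 against 1266, 687 and 681) and RPS21 (351, 327 and 258 against 628, 292 and 282) had the same form. Other members under 300 bases did not: RPL39 (611, 602 and 570 in AdCtrl) and RPS27L (41.9, 44.8 and 41.4) varied little. RPL39L (38.8, 29.7 and 30.0) was high in AdCtrl replicate 1. The 11 members under 300 bases had a median deviation from the AdCtrl mean of 0.13, 0.079 and -0.24 in AdCtrl replicates 1 to 3, whereas the 23 members of 600 bases or more had 0.035, -0.019 and -0.013.

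With all 6 samples, no ribosomal protein gene passed the test of AdSIRT4 against AdCtrl. By edgeR's quasi-likelihood test with Benjamini-Hochberg adjustment over 17720 genes, 0 of 82 members had an adjusted p under 0.05, and 0.0113% of all genes did: SIRT4 and ADAMTS1. At an unadjusted p under 0.05 the count was 0 of 82 members as well, against 7.93% of all genes, and DESeq2 also called 0 members. Members nearly all leaned upwards, 81 of 82 having a positive log2 fold change (median 0.29), against 9459 of all genes tested (median 0.021). Adjusted p of the members ran from 0.672 to 0.980. The 95% interval had a median width of 0.59 on each side, wider than the median fold change, so a change of this size was not detectable in this fit.

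Without AdSIRT4 replicate 1 the sign turned for most members. In the fit of the other 5 samples the median log2 fold change was -0.063 (large subunit -0.053, small subunit -0.066), against -0.0028 over all genes, and 18 of 82 members were above 0. Other genes of like coding length also had medians below 0. These were -0.11 under 300 bases (members -0.17), -0.069 for 300 to 450 (members -0.066) and -0.049 for 450 to 600 (members -0.055). Other genes of 600 to 900 bases had -0.045, and members of 600 bases or more had -0.024. Again 0 of 82 members passed, while 6.71% of 18287 genes did. At an unadjusted p under 0.05 there were 4 of 82 members, RPL34, RPS2, RPL30 and RPL39, against 24.3% of all genes. In 79 members the log2 fold change was within 0.2 of 0, and the 95% interval had a median width of 0.13 on each side. In 80 members the whole interval lay between -0.5 and 0.5, and the exceptions were RPS29 and RPL37A.

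**Figure D3:**
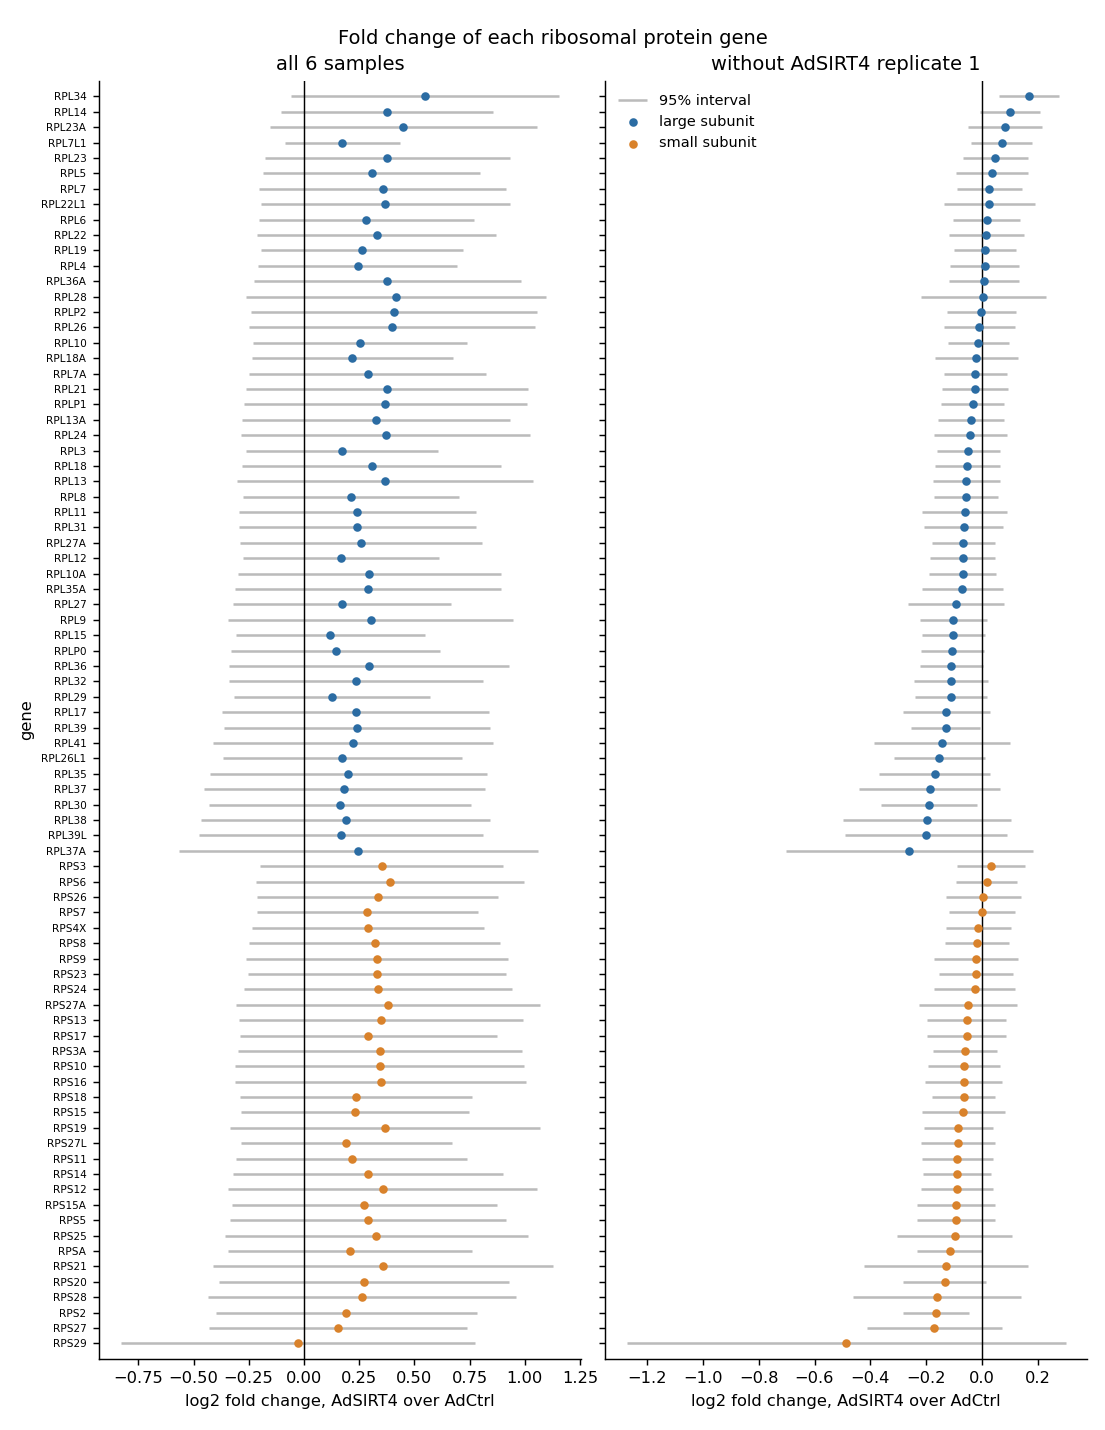
Log2 fold change of AdSIRT4 over AdCtrl (x axis) of each of the 82 genes (y axis, small subunit below, large subunit above, sorted by the value in the right panel), with 95% intervals as grey lines, for all 6 samples (left) and without AdSIRT4 replicate 1 (right). On the left 81 points lie above 0 and all intervals include 0; on the right 18 points lie above 0 and 78 intervals include 0.

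RPL34, a protein of the large subunit (chr4:108620566-108630412, plus strand), had the most positive fold change in both fits. Its CPM were 235, 235 and 233 in AdCtrl and 501, 260 and 268 in AdSIRT4, so the groups did not overlap. The log2 fold change was 0.55 ± 0.26 (SE, adjusted p = 0.672, edgeR) with all samples and 0.17 ± 0.049 (adjusted p = 0.0640) without AdSIRT4 replicate 1. With the replicate number as a block, the fit of 5 samples gave 0.17 ± 0.051 with an adjusted p of 0.0181 (edgeR). In that fit 13.8% of all genes passed. AdCtrl replicate 1 has no partner there, so the blocked fold changes rest on the other replicate pairs alone. Little is then left to measure the spread of a single gene. The 95% intervals of members had quartiles of 0.101 and 0.105 on each side, against 0.117 and 0.149 without the block. With the trend on coding length removed from the 5 samples RPL34 also passed, as 7.51% of all genes did, and by DESeq2 RPL34 and RPS2 passed, as did 9.31% of all genes. In the deposited FPKM its values were 229.9, 244 and 378 against 727, 409 and 273, and the groups overlapped. RPL34 has 16 annotated pseudogenes, and how reads that fit several places were counted is not given in the sources used here.

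With all samples, few members had groups that did not overlap. RPL34, RPL14 and RPL7L1 were higher in every AdSIRT4 than in every AdCtrl sample, 3 of 82 against 9.66% of all genes. No member could be lower throughout, as 9.77% of all genes were, because all 82 had their highest CPM in AdSIRT4 replicate 1. The exact two-sided permutation p for these 3 genes was 0.1, the smallest the design allows. RPL14 had 375, 361 and 372 CPM in AdCtrl and 643, 400 and 395 in AdSIRT4, and RPL7L1 had 174, 174 and 176 against 223, 181 and 188. Without AdSIRT4 replicate 1 these same 3 lay above, against 21.0% of all genes, and 15 members lay below, against 20.7%. The 15 were RPL10A, RPL15, RPL26L1, RPL27A, RPL29, RPL36, RPL39, RPL8, RPL9, RPLP0, RPS18, RPS2, RPS27L, RPS3A and RPSA. The share of members that lay above was smaller than that of all genes with and without AdSIRT4 replicate 1. Without it the share of members that lay below was close to that of all genes.

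The members with the most positive fold changes in 6 samples after RPL34 were RPL23A, RPL28, RPLP2, RPL26, RPS6, RPS27A, RPL23, RPL36A and RPL21. RPL23A sits at the exit of the peptide tunnel and had 380, 338 and 344 CPM against 700, 381 and 371 (log2 fold change 0.45 ± 0.25 with all samples and 0.082 ± 0.060 without AdSIRT4 replicate 1). RPL28 had 534, 422 and 481 CPM against 953, 515 and 449. RPL26, which also binds p53 mRNA, had 376, 360 and 337 against 702, 354 and 360. In each of them AdSIRT4 replicate 1 alone was above the AdCtrl samples by a wide margin. RPL23 (476, 481 and 452 against 857, 475 and 499), RPL21 (403, 419 and 384 against 773, 399 and 394) and RPL36A (478, 519 and 472 against 920, 499 and 488) had the same form. The values of RPL23A and RPL21 are uncertain because 91 and 66 pseudogenes of them are annotated, the former the highest number of any member, and those of RPL36A because a readthrough gene that joins it to HNRNPH2 overlaps it.

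**Figure D4:**
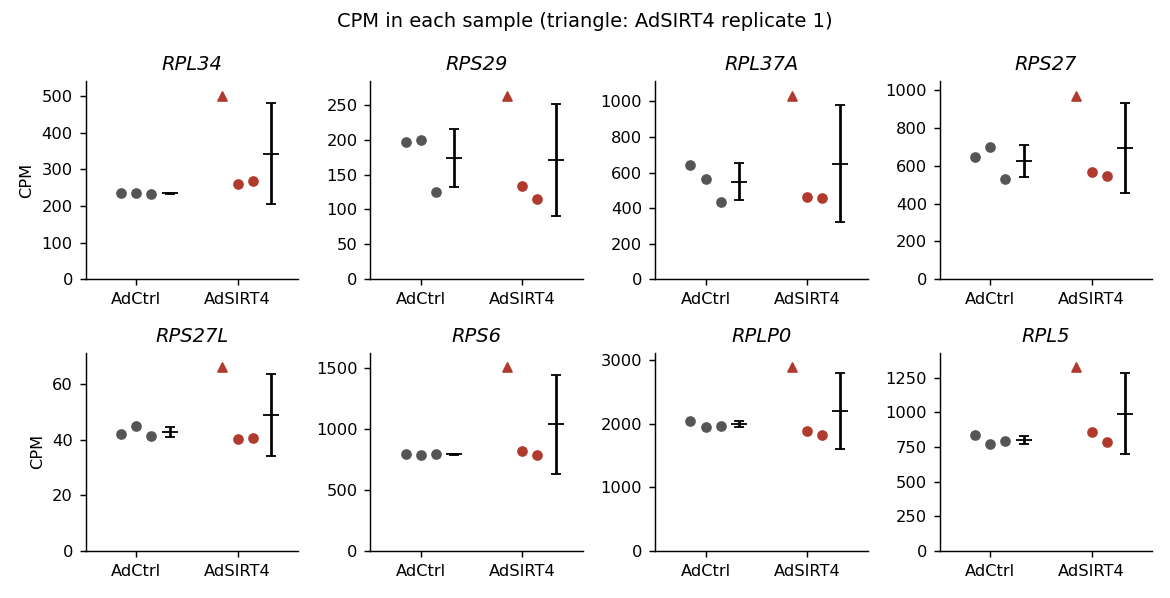
CPM (y axis, from 0) of 8 ribosomal protein genes in AdCtrl (grey) and AdSIRT4 (red) samples, the triangle marking AdSIRT4 replicate 1 and the black bars the mean and SD of 3 samples. The triangle is the highest point of each panel, and RPS29, RPL37A and RPS27 also have a low AdCtrl sample.

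The stalk proteins RPLP0, RPLP1 and RPLP2 bind the translation factors that hydrolyse GTP. RPLP0 had 2044, 1958 and 1973 CPM in AdCtrl and 2888, 1890 and 1824 in AdSIRT4. RPLP1 had 666, 664 and 643 against 1259, 657 and 632, and RPLP2 had 310, 325 and 310 against 622, 329 and 302. RPLP0 lay below the AdCtrl samples in AdSIRT4 replicates 2 and 3, with a log2 fold change of -0.11 ± 0.052 (adjusted p = 0.236, edgeR on 5 samples) against 0.14 ± 0.20 with all 6 (adjusted p = 0.834). RPLP1 (-0.033 ± 0.051) and RPLP2 (-0.0020 ± 0.057) stayed near 0 in the 5 samples.

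RPL5 and RPL11 form a complex with 5S rRNA that binds MDM2 and so raises p53 when assembly fails. RPL5 had 834, 773 and 792 CPM against 1323, 858 and 786, and RPL11 had 731, 781 and 658 against 1173, 706 and 685. Neither passed in either fit, with log2 fold changes of 0.035 ± 0.059 and -0.061 ± 0.070 in the 5 samples. RPS6, on which S6 kinases act downstream of mTORC1, had a log2 fold change of 0.39 ± 0.26 with all samples and 0.017 ± 0.050 without AdSIRT4 replicate 1. RPS27A, made as a fusion with ubiquitin, had 487, 551 and 449 CPM against 976, 494 and 467. RPL13A, which also silences inflammatory mRNAs when released from the ribosome, had 1088, 1077 and 1044 against 1940, 1081 and 1008.

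RPS3, at the mRNA entry channel, and RPSA, at the mRNA exit side, had 1033, 980 and 1014 CPM against 1790, 1077 and 996, and 1024, 986 and 975 against 1604, 944 and 899. RPSA was lower in AdSIRT4 replicates 2 and 3 than in any AdCtrl sample, with a log2 fold change of -0.11 ± 0.053 (adjusted p = 0.212, edgeR on 5 samples). RPS2, also of the entry channel, had 874, 834 and 822 against 1381, 771 and 737, a log2 fold change of -0.17 ± 0.054 in the 5 samples (adjusted p = 0.0898). RPSA has 74 annotated pseudogenes, and the count table holds a row for a single ribosomal protein pseudogene.

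Of the most abundant members, RPS12 had 787, 717 and 740 CPM against 1463, 728 and 682, RPS24 had 715, 797 and 689 against 1336, 730 and 716, and RPS18 had 1068, 1026 and 1018 against 1677, 981 and 1008. RPL39, a small protein that lines the exit tunnel, had 611, 602 and 570 against 1014, 563 and 527. Without AdSIRT4 replicate 1 all 4 had log2 fold changes between -0.13 and -0.026. None passed.

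Removing each library's trend on length brought the median of the members closer to 0 and gave no call with all 6 samples. The median log2 fold change was 0.13 with the trend on the length implied by the tables removed and 0.14 with the trend on coding length removed, a fit chosen after seeing the data, and 74 of 82 members were above 0 in both. Some members moved further from 0 with the trend on implied length removed, among them RPL14 (0.38 to 0.56) and RPS29 (-0.027 to -0.27). RPL14 is treated there as about 8108 bases long, with a coding length of 645 bases. With the trend on coding length removed the highest member stood at 0.36, so RPL14 did not rise in that fit. In the 5 samples the trend on implied length left a median of 0.028, with 52 members above 0 and RPL34 as the only member past the threshold (0.27, adjusted p = 0.0133, edgeR), where 7.66% of all genes passed.

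The same comparison in other genes of the ribosome's life cycle, from lists written by hand, gives the setting. RACK1, a scaffold protein of the small subunit that the rule does not take, had 623, 623 and 637 CPM against 940, 661 and 631. The 78 mitochondrial ribosomal protein genes had median log2 fold changes of 0.20 with all samples and -0.070 without AdSIRT4 replicate 1, close to those of the cytosolic members. With all samples 0 of 78 passed. Without AdSIRT4 replicate 1, MRPL34 (25.2, 24.97 and 23.7 CPM against 33.5, 18.1 and 18.4) and MRPS5 (67.3, 64.4 and 66.1 against 81.7, 57.9 and 53.1) fell, 2 of 78 against 3.34% of all genes that were lower, and replicate 1 of both lay above the AdCtrl samples. With the replicate number as a block, the fit of the 5 samples called 6.79% of all genes higher and 7.01% lower. It called 2 of the 78 higher (MRPL1 and MRPL24) and 5 lower, adding MRPL3, MRPL35 and MRPS15 to MRPL34 and MRPS5.

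Ribosome assembly factors, which process rRNA and put the proteins on it, gave more calls than the ribosomal proteins. With all samples 0 of 77 passed the adjusted threshold, and 17 of 77 had an unadjusted p under 0.05, all higher in AdSIRT4, against 4.43% of all genes. Without AdSIRT4 replicate 1, 9 of 77 rose and none fell, against 3.37% of all genes that were higher, with a median log2 fold change of 0.11 and 65 of 77 above 0. LTV1, which helps to export the small subunit, had 19.7, 20.4 and 20.9 CPM in AdCtrl and 39.0, 27.6 and 26.0 in AdSIRT4 (0.40 ± 0.068, adjusted p = 0.00974, edgeR on 5 samples). WDR43, of the complex that makes pre-rRNA and processes it, had 52.9, 53.3 and 55.2 against 59.0, 67.3 and 68.2 (0.33 ± 0.050, adjusted p = 0.00560). MPHOSPH10 (0.32), UTP20 (0.31), RRP1 (0.28), NIP7 (0.27), GNL3 (0.25), KRR1 (0.23) and DDX18 (0.21) made up the rest. In 8 of these 9 genes every AdSIRT4 sample, replicate 1 included, lay above every AdCtrl sample, and UTP20, at 32.2 CPM in replicate 1, was the exception. The replicate block gave 19 of 77 that rose and none that fell in the 5 samples. In that fit 6.79% of all genes were higher, and AdCtrl replicate 1 had no partner. Whether these genes differ from the ribosomal proteins in their response was not tested.

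Of 17 genes of rRNA synthesis, none passed with all samples. POLR1C (30.8, 31.3 and 30.1 CPM against 44.6, 37.2 and 33.7) and POLR1F (29.6, 30.6 and 30.4 against 36.5, 34.5 and 34.5), subunits of RNA polymerase I, had non-overlapping groups and adjusted p of 0.612 by edgeR. Without AdSIRT4 replicate 1, POLR1G rose (6.05, 6.83 and 6.44 against 6.67, 8.33 and 9.35 CPM) and POLR1H fell (11.9, 11.5 and 11.9 against 16.5, 8.68 and 9.34), both subunits of the same polymerase. These are 1 of 17 in each direction, against 3.37% of all genes higher and 3.34% lower. Replicate 1 of POLR1H lay on the other side of the AdCtrl samples. With the replicate block in the 5 samples 3 rose and 1 fell, POLR1C (0.20 ± 0.066, adjusted p = 0.0298, edgeR) and UBTF (0.20 ± 0.056, adjusted p = 0.00942), a factor that opens rRNA genes, being added. That is 3 of 17 higher, against 6.79% of all genes in the blocked fit, and 1 of 17 lower, against 7.01%.

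The translation factors (47 genes, medians 0.15 and 0.014) and the other TOP mRNAs (21 genes, medians 0.24 and 0.0098) had no call in either fit without the block. With the replicate block in the 5 samples EIF3B (0.18, adjusted p = 0.0126, edgeR) and EIF2S1 (0.16, adjusted p = 0.0352) rose. EIF4A2 (-0.26, adjusted p = 0.00199), which is on both lists, fell. That is 2 of 47 translation factors higher, against 6.79% of all genes in that fit. It is 1 of 47 and 1 of 21 lower, against 7.01% of all genes, so each share was below that of all genes. Without the block, EIF3B, of the initiation factor that loads the small subunit, had 227, 223 and 217 CPM against 308, 249 and 251 and the smallest p of its list (0.16 ± 0.050 in the 5 samples, adjusted p = 0.0759, edgeR). EIF2S1 (70.5, 66.9 and 68.6 against 90.6, 74.7 and 77.1) and EIF1AX (193, 184 and 183 against 261, 204 and 202) were next. Among TOP mRNAs without a ribosomal protein, NAP1L1 (836, 842 and 846 CPM against 1465, 951 and 899) and TPT1 (1300.0, 1283 and 1297 against 2202, 1416 and 1337) were higher in every AdSIRT4 sample, with adjusted p of 0.144 and 0.335 in the 5 samples, and NACA had 462, 439 and 497 against 823, 508 and 471.

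Of 16 regulators of ribosomal protein mRNA, DDIT4 fell and MYC rose without AdSIRT4 replicate 1, and neither passed with all samples. That is 1 of 16 in each direction, against 3.34% of all genes lower and 3.37% higher. With the replicate block in the 5 samples TSC1 (0.18, adjusted p = 0.0218, edgeR), an inhibitor of mTORC1, also rose and EIF4EBP1 (-0.26, adjusted p = 0.00177), which binds eIF4E, also fell. The blocked fit called 2 of 16 higher, against 6.79% of all genes, and 2 of 16 lower, against 7.01%. DDIT4, an inhibitor of mTORC1 induced by stress, had 162, 155 and 175 CPM in AdCtrl and 129, 110 and 127 in AdSIRT4, so the groups did not overlap. Its log2 fold change was -0.43 ± 0.11 (adjusted p = 0.494, edgeR) with all samples and -0.48 ± 0.072 (adjusted p = 0.00546) without AdSIRT4 replicate 1. MYC, which drives transcription of ribosomal protein and assembly factor genes, had 124, 119 and 139 against 151, 150 and 153, with 0.25 ± 0.097 (adjusted p = 0.612) and 0.24 ± 0.065 (adjusted p = 0.0492). Both genes held nearly the same value with and without replicate 1, unlike the ribosomal proteins, a difference that was not tested. EEF2K, the kinase of elongation factor 2, had 40.5, 40.9 and 42.5 against 31.5, 40.6 and 41.0.

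Of 12 genes of ribosome stress and quality control, none passed in either fit without the block, and with it MAP3K20 (-0.19, adjusted p = 0.0142, edgeR) and PELO (-0.19, adjusted p = 0.0474), which rescues stalled ribosomes, fell in the 5 samples, 2 of 12 against 7.01% of all genes lower. MAP3K20, the kinase that senses collided ribosomes, had 145, 134 and 147 CPM in AdCtrl and 84.6, 123 and 124 in AdSIRT4, and its adjusted p without AdSIRT4 replicate 1 was 0.0508 by edgeR (-0.21 ± 0.056). ZNF622 had 17.8, 17.7 and 17.5 against 35.4, 19.9 and 19.0, and NEMF, of ribosome quality control, had 39.9, 41.2 and 35.2 against 41.2, 43.9 and 42.3.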

How the data were processed

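Poly(A) RNA of 6 samples was sequenced as DNA nanoballs. Per the submitters' processing notes, fastp 0.21.0, HISAT2 2.1.0, StringTie 2.1.5 and DESeq2 1.30.1 were among the tools and hg38 the build; strand and multi-mapping settings are not given in the sources used here. The deposited gene counts are whole and not normalized, and the authors' FPKM give a level per length. Counts were scaled by TMM and tested with edgeR 4.0.16 (robust quasi-likelihood, filterByExpr, Benjamini-Hochberg, threshold 0.05), without and with AdSIRT4 replicate 1. Alternatives were DESeq2 1.42.0, limma 3.58.1 on log2(FPKM + 1) and with voom weights, other scalings and filters, length trends removed by loess (span 0.5), and a replicate block. Same-numbered samples deviated together, though weakly (r = 0.178, 0.159 and 0.176, other pairs -0.188 to 0.030), so the numbers were taken to pair the samples. The titles give replicate numbers and do not name pairs, so this pairing is an inference. What the same-numbered samples share was not tested. The main fit has no block, and blocked values are given where they change a call. Without AdSIRT4 replicate 1, AdCtrl replicate 1 has no partner, so every blocked fold change there rests on the other pairs alone. Calls made only with that block carry this limit. Coding lengths and gene positions are from GENCODE 29. The scripts were tested on simulated data.

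The members and gene lists were chosen with earlier results of these data known. Members named in the text were the 6 highest and 6 lowest in FPKM, up to 10 with the largest fold change in each direction, members past a threshold, paralog pairs, members with roles beyond the ribosome, and in each list the 3 smallest p; RPL10, RPL37A, RPL38, RPL41, RPS2, RPS21, RPL30, the members with non-overlapping groups and list genes past the threshold in 5 samples, with or without the block, were added after their values were seen. With 41537353 to 85684748 counts a sample, members had at least 729 counts each. Counting error was not set against the spread between samples for each member, and it was not small beside it in all of them. RPL34, with 9966 to 12699 counts in AdCtrl, had an SD of log2 CPM of 0.0062 there, less than counting error alone would give on average. Its AdCtrl spread is thus likely too low.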

Additional observations from a re-analysis of the deposited data

How the results depend on the processing

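No member passed the threshold with all 6 samples under any setting tried: DESeq2, RLE scaling, TMM without the ribosomal proteins, both filters, the replicate block, removal of length trends, limma on log2(FPKM + 1) or log2(FPKM + 0.1), voom with sample quality weights, or each sample left out. In the 5 samples without AdSIRT4 replicate 1, where the main count was 0, RPL34 passed with the replicate block, with either length trend removed (1 member each) and with DESeq2 (2 members, RPL34 and RPS2; 9.31% of all genes passed there). The replicate block changed no other call among the members. Without AdSIRT4 replicate 1 the blocked fit rests on the replicate pairs that remain. Over all genes the calls with 6 samples were 2 in the main fit, 206 by DESeq2, 12 with the length trend removed, 11 with the coding length trend removed, 5 with no filter, 4 with 10 counts in every sample, 1 with the block and 0 to 5 by limma on FPKM, and with 5 samples 1227 in the main fit, 1702 by DESeq2, 1401 (7.66%) with the length trend removed, 1373 (7.51%) with the coding length trend removed and 2523 with the block. Leaving out each sample, the median log2 fold change of the members ran from -0.063 (without AdSIRT4 replicate 1) to 0.45, the members above 0 from 18 to 82, and the members with non-overlapping groups were 18 without AdSIRT4 replicate 1 against 3 with it. The voom weights left 31 members above 0 with a median of -0.027 and called 1584 genes in all, none of them a member. The median of assembly factors was 0.23 with all samples and 0.11 without AdSIRT4 replicate 1.

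Single genes turned sign mostly with the weights or without AdSIRT4 replicate 1, and the cause was not tested. With the voom weights the log2 fold change was -0.035 for RPL11, -0.13 for RPL26L1, -0.087 for RPL39, -0.13 for RPL39L, -0.077 for RPLP0, -0.042 for RPS12, -0.056 for RPS18, -0.14 for RPS27, -0.0069 for RPS27A, -0.075 for RPS27L and -0.078 for RPSA. With the length trend removed it was -0.0039 for RPL26L1 (-0.0039 with the replicate block), -0.018 for RPL39L (-0.014 with the replicate block) and -0.051 for RPS27 (-0.048 with the replicate block), and with the coding length trend removed -0.059 for RPL39L and -0.040 for RPS27. Leaving out each sample gave -0.061 to 0.38 for RPL11, -0.039 to 0.50 for RPL13A, -0.025 to 0.54 for RPL21, -0.0090 to 0.58 for RPL26, -0.15 to 0.32 for RPL26L1, -0.13 to 0.41 for RPL39, -0.20 to 0.36 for RPL39L, -0.11 to 0.26 for RPLP0, -0.033 to 0.54 for RPLP1, -0.0020 to 0.60 for RPLP2, -0.090 to 0.55 for RPS12, -0.066 to 0.38 for RPS18, -0.026 to 0.49 for RPS24, -0.17 to 0.30 for RPS27, -0.050 to 0.57 for RPS27A, -0.086 to 0.32 for RPS27L, -0.49 to 0.19 for RPS29 and -0.11 to 0.36 for RPSA. Every low end was the value without AdSIRT4 replicate 1. The 95% interval of a member had a median width on each side of 0.59 on the log2 scale with all 6 samples, 0.20 for the same samples with the length trend removed and 0.13 without AdSIRT4 replicate 1.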

Other observations

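Host genes of small nucleolar RNAs are common among ribosomal protein genes. In GENCODE 29, 28 of the 82 members (34.2%) hold at least 1 snoRNA gene within their bounds, 60 in all, against 1.67% of 14548 tested genes with an entry. The poly(A) counts do not measure the snoRNAs themselves. The 82 members lie on 21 chromosomes, with 12 on chromosome 19 and 9 on chromosome 3.

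Readthrough genes that join a ribosomal protein gene to its neighbour have rows of their own. Their counts are given here as deposited, not scaled to the library totals, and their variation was not compared with that of the members. RPL36A-HNRNPH2 had 523, 910 and 676 counts in AdCtrl and 1126, 634 and 3675 in AdSIRT4. RPL17-C18orf32 had 1018, 494 and 623 against 666, 923 and 1682, and RPS10-NUDT3 had 89, 103 and 208 against 83, 86 and 80. In the first 2 rows AdSIRT4 replicate 3 was the highest sample, and in the last AdCtrl replicate 3 was. These rows overlap RPL36A, RPL17 and RPS10, and how reads were divided among them is not given in the sources used here.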
